A study of Mus musculus with 2 samples.

Results

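The cells described here are islet cells that held transcripts of alpha cell and beta cell transcription factors in the same barcode. They were chosen by transcript counts: a barcode with at least 1000 unique molecular identifiers (UMIs, one per captured RNA molecule), at least 500 genes and at most 15% mitochondrial UMIs counted as a cell, and a cell with at least 2 UMIs of Irx1 and Irx2 together and at least 2 UMIs of Nkx6-1 counted as a mixed-factor cell. The rule took 535 of 12450 cells, of which 80 of 4219 were in the control library and 455 of 8231 in the Isl1CKO library. Each library was compared within itself with Irx-only cells, which had at least 2 Irx UMIs and none of Nkx6-1 (1160 in control and 1265 in Isl1CKO), and with Nkx6-1-only cells, which had at least 2 Nkx6-1 UMIs and none of Irx1 or Irx2 (395 and 2018). The name states only the rule: Pdx1, another beta cell factor, had a UMI in 41.2% of the control members and in 12.5% of the Isl1CKO members.

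Irx1 and Irx2 are homeodomain factors of alpha cells, which secrete glucagon, and Nkx6-1 is a homeodomain factor of beta cells, which secrete insulin. In islet development Pdx1 and Nkx6-1 favour the beta fate, and the alpha and beta programmes are known to repress each other. Isl1 is a LIM-homeodomain factor of endocrine cells in the islet. In the GRCm38 build, Irx1 lies at chr13:71957921-71963723, Irx2 at chr13:72628820-72634198 and Nkx6-1 at chr5:101658139-101664996.

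The study compared pancreatic endocrine cells of mice that lose Isl1 with cells of control mice, both 1 month old, by droplet single-cell RNA sequencing of sorted tdTomato+ cells. Controls had the genotype Neurod1 Cre/+; Isl1f/+ and mutants (Isl1CKO) Neurod1 Cre/+; Isl1f/f, so both carried the Cre, active in Neurod1-expressing cells, and the controls carried 1 floxed Isl1 allele. Both carried the tdTomato reporter, and both were digested with actinomycin D, a transcription inhibitor, in the medium. Each genotype was 1 library of 3 pooled animals, so the differences below have no replicate check and no test was run. All intervals are exact 95% intervals and cover counting error only.

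The control library held 48685758 UMIs and the Isl1CKO library 86086781. Cells had a median of 9015 UMIs in control and 8137 in Isl1CKO, with 8 barcodes found among the cells of both libraries. The label gives the control animals as males, but 23.1% of control cells had Xist UMIs and none of 4 Y-linked genes, and 41.2% had Y-linked UMIs and no Xist. In Isl1CKO, labelled as female and male, these shares were 65.4% and 20.5%. Isl1 itself was counted at 325 CPM (counts per 1000000, scaled between groups by the trimmed mean of M-values, TMM) in control and 351 in Isl1CKO mixed-factor cells. The floxed exons are not given in the sources used here, so counts taken at the 3′ end check nothing about the deletion.

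Mixed-factor cells made up 1.90% of control cells (interval 1.51 to 2.35) and 5.53% of Isl1CKO cells (5.04 to 6.04). The median member had 3 Irx UMIs and 2 Nkx6-1 UMIs in control, and 4 and 2 in Isl1CKO, with maxima of 10 and 17 in control and 42 and 18 in Isl1CKO. Both Irx genes were seen in 58 of the 80 control members (72.5%) and in 357 of the 455 Isl1CKO members (78.5%), near the 71.2% and 75.7% of Irx-only cells. Only Irx1 was seen in 11 control and 31 Isl1CKO members, and only Irx2 in 11 and 67. Most members thus stood close to the lower limit of the rule on the Nkx6-1 side: 45 control and 267 Isl1CKO members had exactly 2 Nkx6-1 UMIs. Just outside the rule, 220 control and 655 Isl1CKO cells had at least 2 Irx UMIs and 1 Nkx6-1 UMI, and 44 and 169 had at least 2 Nkx6-1 UMIs and 1 Irx UMI.

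**Figure D1:**
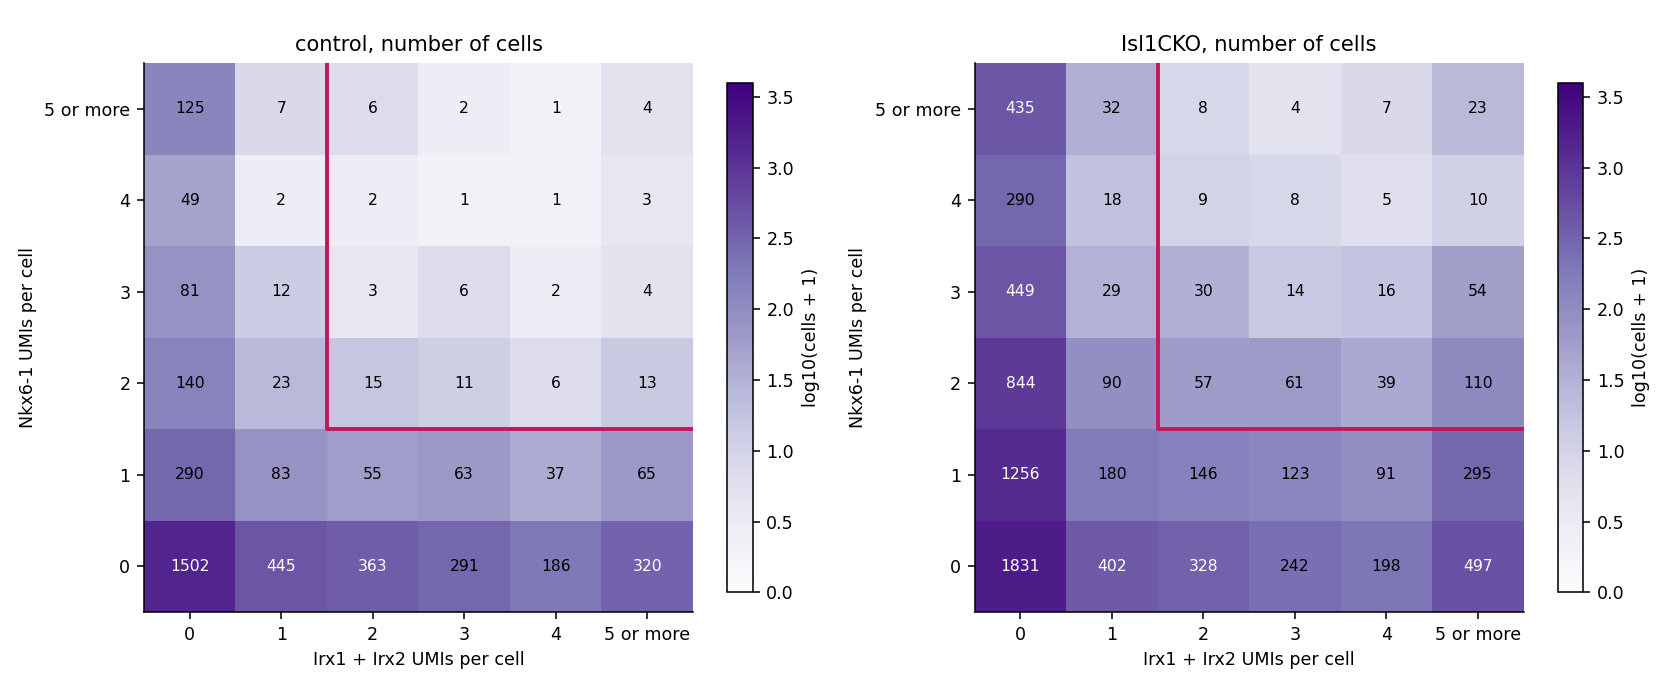
Number of cells by Irx1 plus Irx2 UMIs (horizontal axis) and Nkx6-1 UMIs (vertical axis) in each library, shaded by log10(cells + 1); the pink line marks the mixed-factor cells. In both libraries the counts are highest along the 2 axes, with 1502 control and 1831 Isl1CKO cells at 0 and 0, and thin out toward the upper right.

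Mixed-factor cells were a larger share of deeper cells in both libraries. In control they were 0 of 371 cells below 5000 UMIs, 0.102% at 5000 to 7499 UMIs, 1.32% at 7500 to 9999, 2.01% at 10000 to 14999, 4.29% at 15000 to 24999 and 12.8% at 25000 and above. In Isl1CKO the shares were 0% below 3000 UMIs, 2.10% at 3000 to 4999 UMIs, 4.24%, 4.44%, 7.38% and 10.8% in the next 4 bins, and 19.5% at 25000 and above. The order is set partly by the rule, because a deeper cell reaches 2 UMIs of each side more easily. From 5000 to 24999 UMIs the Isl1CKO share was above the control share in each bin, with intervals that did not overlap. At 25000 and above the intervals, 8.19 to 18.7% in control and 13.7 to 26.4% in Isl1CKO, did overlap, as did those at 3000 to 4999 UMIs.

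In both libraries the share of cells with Nkx6-1 was lower among cells with Irx transcripts than among cells without them. Of cells with at least 2 Irx UMIs, 5.48% in control (80 of 1460) and 19.2% in Isl1CKO (455 of 2375) had at least 2 Nkx6-1 UMIs, against 18.1% of 2187 and 39.5% of 5105 cells with no Irx UMI. This order held within each bin from 3000 UMIs: at 10000 to 14999 UMIs the shares were 4.03% against 22.7% in control and 21.6% against 52.2% in Isl1CKO. Between 2 and 9 Irx UMIs the share differed little with the number of Irx UMIs. Cells with 2, 3, 4 and 5 to 9 Irx UMIs had at least 2 Nkx6-1 UMIs in 5.86%, 5.35%, 4.29% and 5.91% of cases in control, and in 18.0%, 19.2%, 18.8% and 19.0% in Isl1CKO. Median depth rose along these steps, from 9939.5 to 11832 UMIs in control and from 7604.5 to 10917 in Isl1CKO. The shares are thus not compared at equal depth. With 10 or more Irx UMIs the shares were 5.41% (2 of 37 cells) and 22.1% (64 of 290), although those cells were also the deepest, with medians of 20762 and 17949 UMIs.

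**Figure D2:**
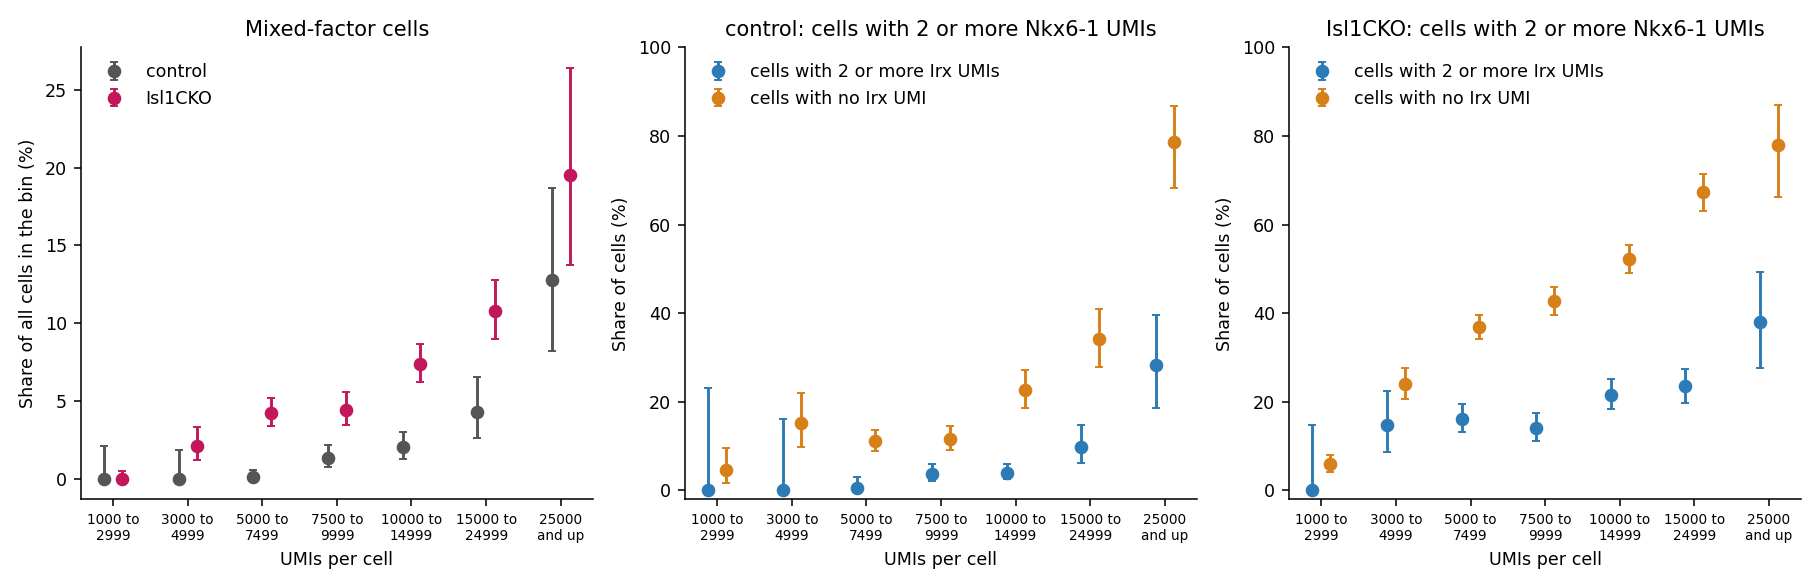
Left: mixed-factor cells as a percentage of all cells, by UMIs per cell; middle and right: percentage of cells with at least 2 Nkx6-1 UMIs among cells with at least 2 Irx UMIs (blue) and with no Irx UMI (orange), in each library. Points are shares with exact 95% binomial intervals; shares are highest in the deepest cells, and blue lies below orange in every bin from 3000 UMIs up.

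When each cell was thinned at random to 3000 UMIs, leaving out 176 control and 712 Isl1CKO cells below that depth, 2 of 4043 control cells (0.0495%, interval 0.00599 to 0.179) and 33 of 7519 Isl1CKO cells (0.439%, 0.302 to 0.616) met the rule. The order between the libraries was thus the same at equal depth, on 2 control cells. Among thinned cells with at least 2 Irx UMIs, 1 or more Nkx6-1 UMIs were found in 6.91% in control and 21.8% in Isl1CKO. Insulin gives a measure of free RNA, taken from the median Irx-only cell. If all of its insulin RNA were free RNA, the same free RNA would add 0.00329 Nkx6-1 UMIs to a control member of median depth. In Isl1CKO it would add 0.0157. On the other side, glucagon RNA in the median Nkx6-1-only cell would in the same way add 0.00907 Irx UMIs in control. In Isl1CKO that median was 0. Free RNA was read from barcodes of at most 100 UMIs, where Gcg made up 16.7% of UMIs in control and 0.0890% in Isl1CKO. With so little Gcg in Isl1CKO free RNA, a median of 0 does not measure free RNA there. A median cell does not show how free RNA was spread over a minority of cells. Of barcodes with at least 1% of UMIs from markers of acinar, ductal, immune, vascular, stromal, Schwann or red blood cells, and less than 0.5% from the granins Chga and Chgb, 0 of 20 in control and 0 of 31 in Isl1CKO had any Nkx6-1 UMI, at medians of 3662.5 and 3173 UMIs; counts of 0 allow shares up to 15% and 9.68%. The 81 Isl1CKO barcodes with such markers and more granin RNA, at a median of 6754 UMIs, had at least 2 Nkx6-1 UMIs in 28.4%, and 73 of them passed 1% through acinar genes alone. Of the barcodes with less granin RNA, 1 of 20 in control had at least 2 Irx UMIs, and 0 of 31 in Isl1CKO had any. Granins are themselves part of free RNA: Chga made up 0.862% of it in control and 5.88% in Isl1CKO. The limit of 0.5% thus leaves out barcodes with much free RNA, above all in Isl1CKO. These counts therefore do not show how much free RNA reached the members. The part of free RNA in the members was not tested.

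Values that can mark 2 cells in 1 droplet were higher over all members than in either class. Members were deeper than the cells they were compared with: their median was 16035.5 UMIs in control, against 10266.5 in Irx-only and 11438 in Nkx6-1-only cells, and 11739 in Isl1CKO, against 9259 and 9550.5. The doublet caller Scrublet marked 25 of the 80 control members (31.2%), against 5.86% of Irx-only and 4.05% of Nkx6-1-only cells. In Isl1CKO its own threshold marked 0 cells and so did not work; with the control threshold it marked 79 of the 455 members (17.4%), against 1.90% and 2.92%. Because each pool held cells of both sexes, Xist and Y-linked UMIs in the same barcode also mark some doublets. Both were present in 20% of control members, against 5.00% of Irx-only and 1.52% of Nkx6-1-only cells, and in 10.8% of Isl1CKO members, against 2.06% and 4.86%. Among cells of 10000 to 14999 UMIs the shares were 13.6%, 1.81% and 2.22% in control and 5.30%, 1.68% and 3.45% in Isl1CKO. At 15000 UMIs and above, which holds 13 of the 16 control members with both, the control members were near the Irx-only cells, at 31.0% (13 of 42) against 27.5% of Irx-only and 2.88% of Nkx6-1-only cells, and the Isl1CKO shares were 27.4%, 5.54% and 15.7%. Without the Scrublet-marked cells and the cells with Xist and Y-linked UMIs, 48 control members (1.22% of the remaining cells) and 358 Isl1CKO members (4.59%) were left. The part of doublets in the values of the members was not tested, and the values below are given with all members and, where they differ, without these cells.

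In control, most members passed 1% of UMIs for glucagon, and few of them passed for insulin as well. Glucagon (Gcg) made up at least 1% of UMIs in 77 of the 80 control members, pancreatic polypeptide (Ppy) in 36, somatostatin (Sst) in 21 and insulin (Ins1 and Ins2) in 13; 45 members passed 1% for at least 2 of these hormones (56.2%), against 22.7% of Irx-only and 28.4% of Nkx6-1-only cells. Glucagon and insulin passed together in 10 control members (12.5%), against 0.948% of Irx-only and 1.77% of Nkx6-1-only cells. The median member gave 23.5% of its UMIs to glucagon and 0.0684% to insulin, beside 34.5% and 0.0503% in Irx-only cells, so the insulin RNA of the group sat in few cells: 66.8% of its Ins2 UMIs came from 5 cells. In Isl1CKO 422 of the 455 members (92.7%) passed 1% for none of these hormones, against 93.5% of Irx-only and 79.3% of Nkx6-1-only cells. There 15 members passed for glucagon, 18 for insulin and 0 for both, and 64.5% of the Ins2 UMIs of the members came from 5 cells.

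For the gene levels, UMIs were summed over the cells of a class, and a gene was called at a difference of at least 2-fold (with 1 UMI added to each sum) if it had at least 20 CPM and 20 UMIs in 1 of the classes compared. Since Irx1, Irx2 and Nkx6-1 chose the classes, these within-library differences describe the cells chosen and are no test. Values in parentheses after a gene are log2 ratios, with the interval where one is given. Irx1 stood at 199 CPM in control Irx-only cells and 108 in members, and at 217 and 166 in Isl1CKO; Nkx6-1 stood at 360.4 in control Nkx6-1-only cells and 174 in members, and at 245 and 172 in Isl1CKO. Members had less of each rule gene per UMI than the class that held it alone, in both libraries.

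In control, the summed RNA of the members lay between the classes for genes of both cell types that the rule did not use. The Nkx6-1-only class was not made of insulin cells alone. At least 1% of UMIs came from insulin in 42.5% of its control cells, from Ppy in 44.1% and from Sst in 25.3%. Pdx1, which activates the insulin genes, stood at 12.6 CPM in Irx-only cells, 66.8 in members and 194 in Nkx6-1-only cells. Slc38a5, an amino acid transporter of alpha cells, ran the other way, with 117, 51.8 and 16 CPM. After thinning to 3000 UMIs, Pdx1 was detected in 13.8% of control members, 2.09% of Irx-only and 34.7% of Nkx6-1-only cells (unthinned 41.2%, 8.02% and 68.4%). The members with Pdx1 were not spread evenly over the ranges of the single-cell index below, which counts Pdx1 among its genes.

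Against Irx-only cells, control members had 65 of 5397 genes at least 2-fold higher (1.2%) and 13 lower (0.241%). Of the 11 measured beta cell genes, 8 were higher and 0 lower; their median log2 ratio was 2.63 beside -0.04 over all measured genes. They included the glucose transporter Slc2a2 (5.35, 4.60 to 6.37), the prolactin receptor Prlr (4.05), Pdx1 (2.41), the glucose-6-phosphatase subunit G6pc2 (2.63), the granule protein Sytl4 (5.74, from 4 UMIs in Irx-only cells) and the amylin gene Iapp (2.15). Ins1 and Ins2 were higher by 5.57 and 5.26. Some of these sums came from few cells. Slc2a2 was counted in 10 of the 80 members and G6pc2 in 14, with 83.1% and 76.8% of their UMIs in 5 cells. Pdx1 was counted in 33 members and Iapp in 75, with 34.7% and 33.8% in 5 cells. Of 11 alpha cell genes 0 were higher and 2 lower, Slc38a5 (-1.16) and the somatostatin receptor Sstr2 (-1.50), with a median of -0.61. Somatostatin (1.38) and the delta cell factor Hhex (1.75), and the gamma cell hormones Ppy (1.56) and Pyy (1.31), were higher as well.

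In cells of middle depth the picture was different. Cells of 5000 to 14999 UMIs alone keep 38 control members. Against Irx-only cells of this depth, 15 of 5575 genes were higher and 93 lower. Of 6 measured beta cell genes 3 were higher, with a median of 0.44. The ratios of Sst, Ppy and Pyy had the other sign, at -0.45, -0.95 and -0.44. Without Scrublet-marked cells and cells with Xist and Y-linked UMIs the beta cell list had 7 of 10 genes higher, with a median of 2.71. Over all genes 52 of 5091 were then higher and 41 lower. Leaving hormone genes out of the totals gave 142 genes called (123 higher, 19 lower).

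Against Nkx6-1-only cells, control members had 93 of 5466 genes higher (1.7%) and 119 lower (2.18%). Of 10 measured alpha cell genes 6 were higher and 0 lower (median 1.76, all genes -0.06), among them Gcg (4.34), the carrier protein gene Ttr (2.55), the POU factor Pou3f4 (3.12), the cationic amino acid transporter Slc7a2 (2.02) and Slc38a5 (1.69). Of 13 measured beta cell genes 11 were lower and 0 higher (median -1.45), including Slc2a2 (-2.41), the peptide hormone gene Ucn3 (-2.10), Prlr (-2.01) and Pdx1 (-1.52). In cells of 5000 to 14999 UMIs 4 of 10 measured beta cell genes were lower and 1 higher (median -0.82). Over all 5533 measured genes 101 were higher and 446 lower. In cells with Xist and no Y-linked UMI, 17 of them members, Ins1, Ins2, Slc2a2 and G6pc2 were instead higher than in Nkx6-1-only cells, at 1.23, 0.77, 0.76 and 1.21. These 17 members held 359874 UMIs of all genes. Over all control members, 1 cell held 41744 Ins2 UMIs, and 5 cells held 83.1% of the Slc2a2 and 76.8% of the G6pc2 UMIs. The ratios in the 17 members can thus rest on 1 or a few cells. Without scaling the split of all calls was 115 higher and 61 lower.

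In Isl1CKO the beta cell factor Pdx1 was low, and the name of the cells rests there on Irx1, Irx2 and Nkx6-1. Pdx1 stood at 3.10 CPM in Irx-only cells, 11 in members and 42.5 in Nkx6-1-only cells. After thinning it was detected in 2.86% of members, 0.965% of Irx-only and 15.2% of Nkx6-1-only cells (unthinned 12.5%, 2.85% and 39.5%).

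Isl1CKO members differed little from Irx-only cells: 20 of 5421 genes were at least 2-fold higher (0.369%) and 2 lower (0.0369%). Of 7 measured beta cell genes 4 were higher, Ins1 (4.42), Ins2 (3.73), Iapp (2.98) and Prlr (1.47), and 0 of 9 alpha cell genes were called in either direction (medians 1.47 and -0.33, all genes -0.04). The granin gene Chgb was higher by 1.12. Without Scrublet-marked cells and cells with Xist and Y-linked UMIs, 10 of 5355 genes were called in place of 22, and 9 of the 10 were among the 22. Of 7 beta cell genes 4 were higher, with a median of 1.09.

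Against Nkx6-1-only cells, Isl1CKO members had 101 of 5644 genes higher (1.79%) and 173 lower (3.07%). Of 9 alpha cell genes 7 were higher and 0 lower (median 1.23, all genes 0.01), among them Gcg (5.43), Sstr2 (5.73), Slc38a5 (4.98), Ttr, the collectrin gene Tmem27 (1.12) and the vitamin D-binding protein gene Gc (1.05). Of 9 beta cell genes 6 were lower and 0 higher (median -1.76), including Ins2 (-2.43), Iapp (-2.08) and Pdx1 (-1.94). The gut hormone genes secretin (Sct, 4.87) and ghrelin (Ghrl, 3.48) were higher and Chgb lower (-1.89). Of the 185 Ghrl UMIs of the members 68 came from 1 cell, and without Scrublet-marked cells and cells with Xist and Y-linked UMIs Ghrl did not pass the limits for measurement. With totals that exclude hormone genes the split was 92 higher and 304 lower.

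**Figure D3:**
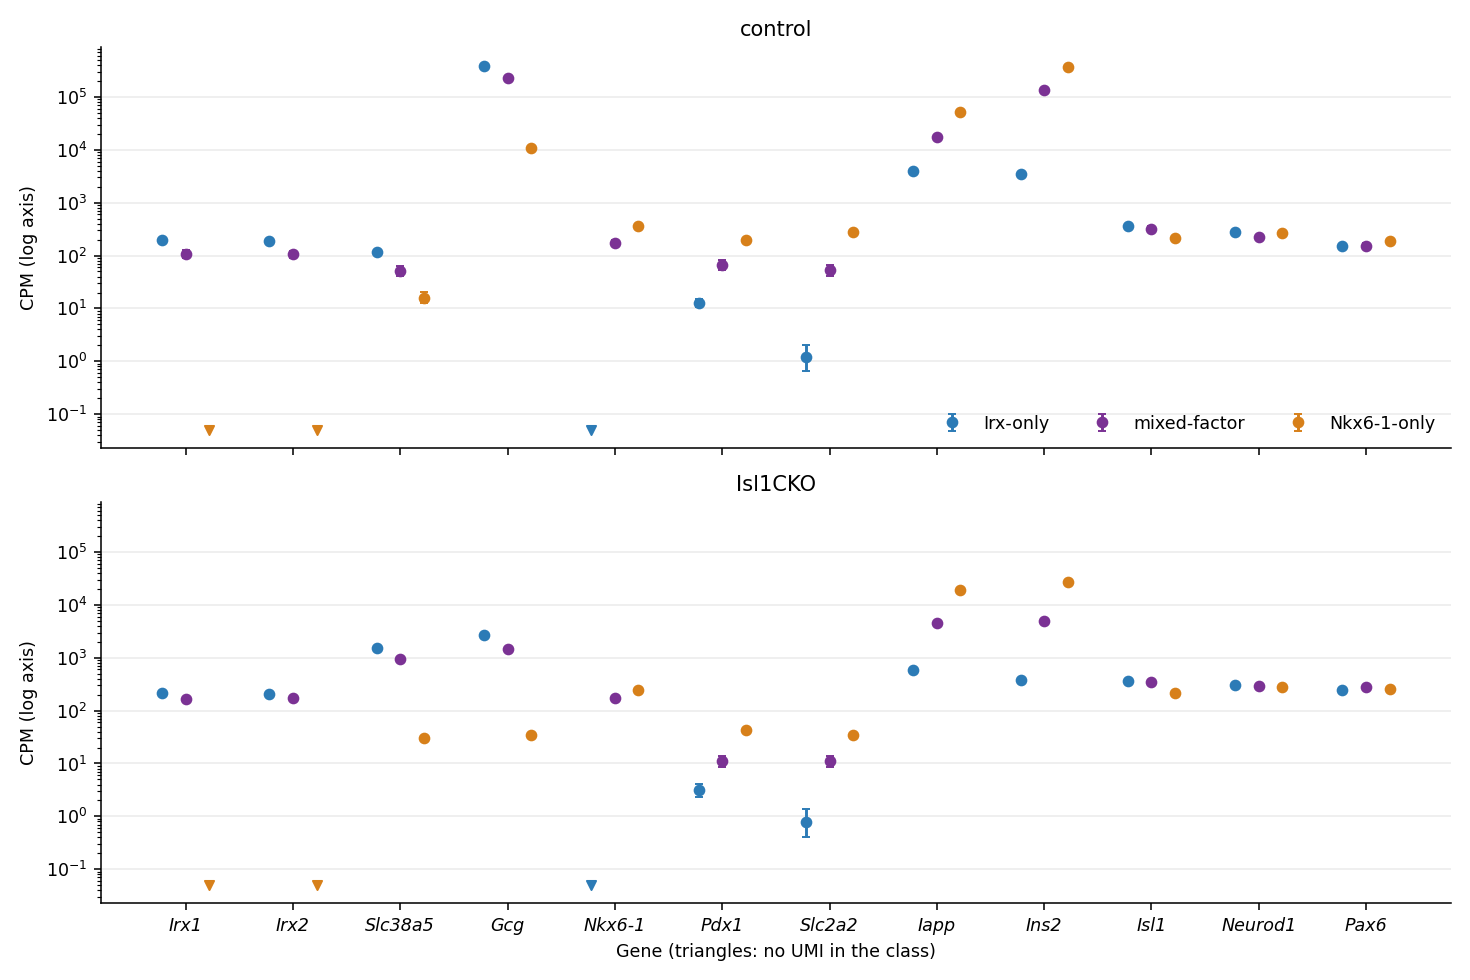
TMM-scaled CPM on a log axis of 12 genes in the 3 classes of each library, with exact 95% Poisson intervals; triangles mark classes with no UMI, fixed there by the rule. In both libraries the members lie between the classes for the alpha genes Slc38a5 and Gcg and the beta genes Pdx1, Slc2a2, Iapp and Ins2. For Slc38a5 and Gcg they lie nearer to Irx-only cells on the log axis in both.

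The pan-endocrine factors Isl1, Neurod1 and Pax6 differed by less than 2-fold between the classes. In control, Isl1 stood at 355 CPM in Irx-only cells, 325 in members and 215 in Nkx6-1-only cells, and in Isl1CKO at 367, 351 and 217. Neurod1, a bHLH factor of endocrine cells and the driver of the Cre, stood at 273, 222 and 273 CPM in control and 309, 298 and 282 in Isl1CKO. Pax6, which islet hormone genes require, stood at 154, 153 and 191, and at 249.5, 276 and 258. Of the list of general islet factors, 1 of 14 measured genes was called between members and Irx-only cells in control and 0 of 14 in Isl1CKO. Against Nkx6-1-only cells, 2 of 16 were lower and 0 higher in each library, Mlxipl and Glis3. The shares over all genes given above for the 4 comparisons lie between 0.0369% and 3.07% in a direction.

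To see whether single members were mixed or the group was a mixture, each cell was placed between the 2 classes by genes outside the rule. Genes at least 4-fold higher in Irx-only than in Nkx6-1-only cells of the same library, and the reverse, without hormones or rule genes and without a gene that gave 10% or more of its side (Ttr and Chgb), were taken: 59 and 74 genes in control and 51 and 92 in Isl1CKO. The index of a cell is the percentage of its UMIs on these genes that fell on the Irx side. The genes and this index were chosen after the data had been seen, and members played no part in choosing the genes. Irx-only cells had a median index of 93.2% in control and 92.9% in Isl1CKO, and Nkx6-1-only cells 12% and 13%; members had 84.4% and 87.1%.

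Most members sat among the Irx-only cells. In control 41 of the 80 (51.2%) lay at or above the 10th percentile of Irx-only cells, 13 (16.2%) at or below the 90th percentile of Nkx6-1-only cells, and 26 (32.5%) between. In Isl1CKO the numbers were 300 (65.9%), 36 (7.91%) and 119 (26.2%). Within 5 points of one of the limits lay 10 control and 57 Isl1CKO members. With genes detected in place of UMIs, 42 and 290 members lay in the Irx-only range. Members with exactly 2 Nkx6-1 UMIs had medians of 92.1% in control and 89.1% in Isl1CKO, and those with 3 or more 52.9% and 83.9%; just outside the rule, cells with at least 2 Irx UMIs and 1 of Nkx6-1 had 91.6% and 91.1%, and cells with at least 2 Nkx6-1 UMIs and 1 Irx UMI 48.2% and 37.0%.

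The 3 ranges differed in doublet marks, sex marks, depth and hormones. Between the limits Scrublet marked 16 of 26 members in control and 60 of 119 in Isl1CKO. In the Irx-only range it marked 1 of 41 and 12 of 300, and in the Nkx6-1-only range 8 of 13 and 7 of 36. Scrublet scores the same transcriptomes against sums of 2 cells, so its marks are not independent of the index. Xist and Y-linked UMIs occurred together in 11 of 26 and 19 of 119 between the limits. They did so in 3 of 41 and 23 of 300 in the Irx-only range, and in 2 of 13 and 7 of 36 in the Nkx6-1-only range. In control the median member had 10970 UMIs in the Irx-only range, 22598.5 between and 41661 in the Nkx6-1-only range; in Isl1CKO the medians were 11357, 12614 and 13875. Glucagon made up at least 1% of UMIs in all 41 control members of the Irx-only range and insulin in 1 of them, whereas 10 of 13 members of the Nkx6-1-only range passed for glucagon and 10 for insulin. Pdx1 had a UMI in 3 of 41 control members of the Irx-only range (7.32%), 17 of 26 between and all 13 of the Nkx6-1-only range, and in 4 of 300, 35 of 119 and 18 of 36 Isl1CKO members. In the Irx-only range its share was near the 8.02% and 2.85% of Irx-only cells. Pdx1 was one of the Nkx6-1-side genes of the index in both libraries, so its order over the ranges is partly built in. Without Scrublet-marked cells and cells with Xist and Y-linked UMIs, 37 of 48 control members (77.1%) and 275 of 358 Isl1CKO members (76.8%) lay in the Irx-only range, and 7 and 57 between.

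**Figure D4:**
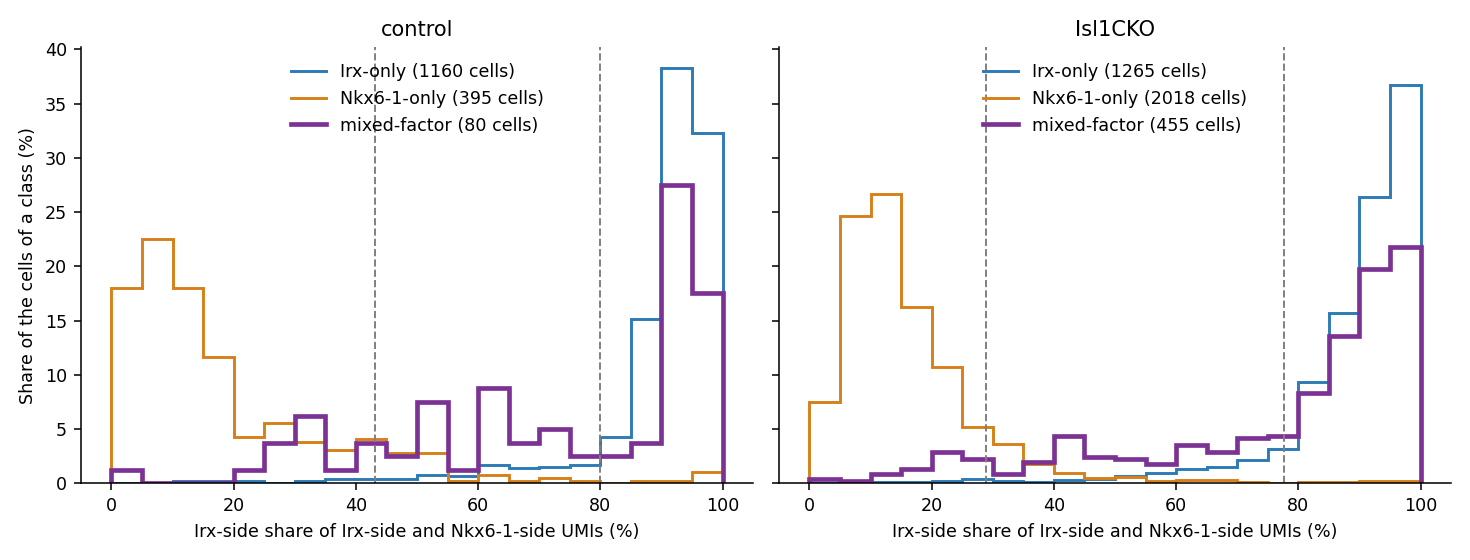
Distribution of the index, the Irx-side share of Irx-side and Nkx6-1-side UMIs in a cell, over Irx-only (blue), Nkx6-1-only (orange) and mixed-factor cells (purple), as a percentage of the cells of each class; dashed lines mark the 10th percentile of Irx-only and the 90th percentile of Nkx6-1-only cells. The purple curve peaks with the Irx-only cells in both libraries and has a tail through the middle.

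Few genes set the members apart from both classes. Of 5163 genes measured in both comparisons in control, 6 were at least 2-fold higher in members than in both classes and 1 was lower; of 5286 in Isl1CKO there were 0 and 0. Of the 6, Mki67, Top2a and Ube2c, genes of dividing cells, and the histone gene Hist1h2ae owed their place to 1 cell: it held all 39 UMIs of Top2a, all 54 of Ube2c, 38 of the 40 of Mki67 and 33 of the 46 of Hist1h2ae. The same cell held 41744 of the 195719 Ins2 UMIs and 30 of the 77 Slc2a2 UMIs of the control members. Of their Gcg UMIs it held 3849 of 328570, and of their Pdx1 UMIs 6 of 98. Ube2c was named after its value was seen. The other 2 were Serpina7, a thyroxine-binding globulin gene, with 25 of its 37 UMIs in 1 cell, and the sodium channel subunit gene Scn3b, with 33 UMIs in 22 of the 80 members (1.60 against Irx-only and 1.45 against Nkx6-1-only cells). Nap1l3, a nucleosome assembly protein gene, was lower, with 14 UMIs (-1.01 and -1.06). Without Scrublet-marked cells and cells with Xist and Y-linked UMIs, which leaves 48 control members, 14 genes were higher and 9 lower in control, and 0 and 0 in Isl1CKO; the 14 held Mki67, Top2a, Ube2c and Hist1h2ae but neither Serpina7 nor Scn3b. Over all measured genes, 2231 of 5163 in control members and 3435 of 5286 in Isl1CKO members lay between the classes.

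Between genotypes, the Isl1CKO members had far less islet hormone RNA than the control members. Gcg, Ins1, Ins2, Iapp, Sst, Ppy and Pyy were lower and Ghrl higher, so that all 8 hormone genes measured were called. Ghrl did not pass the limits for measurement in cells of 5000 to 14999 UMIs, in Y-linked cells, or without Scrublet-marked cells and cells with Xist and Y-linked UMIs, and 5 members held 60.5% of its Isl1CKO UMIs. Gcg stood at 223911 CPM in control and 1472 in Isl1CKO (-7.25, -7.28 to -7.22), Ins2 at 133377 and 4989 (-4.74), Iapp at 17885 and 4622 (-1.95), and Ghrl at 1.36 (2 UMIs) and 24.7 (3.61, 2.31 to 7.24). Sst, Ppy and Pyy stood at 20979, 66906 and 57574 CPM in control and at 1.20, 2.54 and 9.50 in Isl1CKO. The same 7 hormone genes were lower in Irx-only cells and in Nkx6-1-only cells.

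In all, 389 of 5734 genes were at least 2-fold higher in Isl1CKO than in control members (6.78%) and 288 lower (5.02%), against 6.73% and 5.36% in Irx-only and 6.58% and 4.36% in Nkx6-1-only cells. The split moved with the scaling: without it the calls were 1683 higher and 120 lower, and with totals that exclude hormone genes 228 higher and 784 lower, with shifts of 0.56 and -0.33 in the median of all genes. The genes at 2-fold or more named below had the same direction under each scaling. A ratio between libraries of summed RNA does not tell fewer cells with a transcript from less of it per cell. The alpha cell genes divided: of 11, Ttr (2.00), Gc (1.63), Slc38a5 (4.19) and Sstr2 (1.88) were higher, while 4 were lower, among them Gcg, Pou3f4 (-3.31) and Slc7a2 (-1.83), with a median of 0.12 beside 0.11 over all genes. Of 11 beta cell genes 8 were lower and 0 higher, with a median of -1.95; beside the hormones these were Pdx1 (-2.60, -3.05 to -2.17), Slc2a2 (-2.26), G6pc2 (-4.99), the oxidoreductase gene Ero1lb (-1.72) and Sytl4 (-1.79). In the delta cell list Sst, Hhex (-2.88) and the retinol carrier gene Rbp4 (-2.61) were lower, 3 of 4 measured.

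The factors Isl1, Neurod1, Nkx2-2 and Pax6 were under 2-fold between the genotypes in members. Isl1 was at 0.11 (-0.03 to 0.25), Neurod1 at 0.42, Nkx2-2 at 0.47 and Pax6 at 0.85. Of 15 measured islet factors, the serotonergic factor Fev was higher (1.21) and the carbohydrate-response factor Mlxipl lower, a share near the 6.78% and 5.02% over all genes. Neurog3, which starts endocrine differentiation, stood at 25.9 CPM in control and 3.08 in Isl1CKO members (-3.05).

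Several genes with few UMIs in control members had high ratios. The neuropeptide gene Cartpt was counted 2 times in control members and 1150 times in Isl1CKO members, at 1.36 and 154 CPM (6.23, 4.96 to 9.87). Sct stood at 4.09 and 158 CPM (5.05), the angiotensinogen gene Agt at 18.4 and 492 (4.69), and Cidea, which acts on lipid droplets, at 4.77 and 227 (5.38). Of the 9 measured genes of the list of gut hormones, neuropeptides and granins, 7 were higher and Scg2 lower (-2.52); Vgf (3.41), Chga (2.46) and Chgb (1.51) were among the 7. Also among the 12 highest ratios were the arrestin-family gene Arrdc4 (4.95), the arginine synthesis gene Ass1 (4.83, from 2 UMIs, 3.55 to 8.47) and the membrane protein gene Ttyh1 (4.80). Rprml was not counted in control members; against 3 counts as the limit over the group, its 44.1 CPM in Isl1CKO was at least 21.6-fold higher.

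Among the genes with lower levels were, beside the hormones, the ATP-sensitive potassium channel subunit Abcc8, the sulfonylurea receptor. It stood at 218 CPM in control and 6.29 in Isl1CKO members (-5.09, -5.59 to -4.67). The urea cycle gene Arg1 (-8.44, 3 UMIs in Isl1CKO, -11.13 to -7.28), Fam159b (-6.56), the growth cone protein gene Gap43 (-6.55, 2 UMIs, -10.19 to -5.18), Dapl1 (-6.01, 2 UMIs, -9.66 to -4.60) and the calcium-binding protein gene Cabp7 (-5.11) were also among the 12 lowest.

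For several genes the level in Isl1CKO differed between the classes. Slc38a5 stood at 1530.4 CPM in Isl1CKO Irx-only cells, 959 in members and 30.3 in Nkx6-1-only cells; Sct stood at 217, 158 and 5.37, and Agt at 1091, 492 and 46.3. Cartpt, in contrast, stood at 147, 154 and 159.8 CPM in the 3 classes, and Arrdc4 at 247, 210.3 and 279. Whether these genotype differences differ between the classes was not tested.

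**Figure D5:**
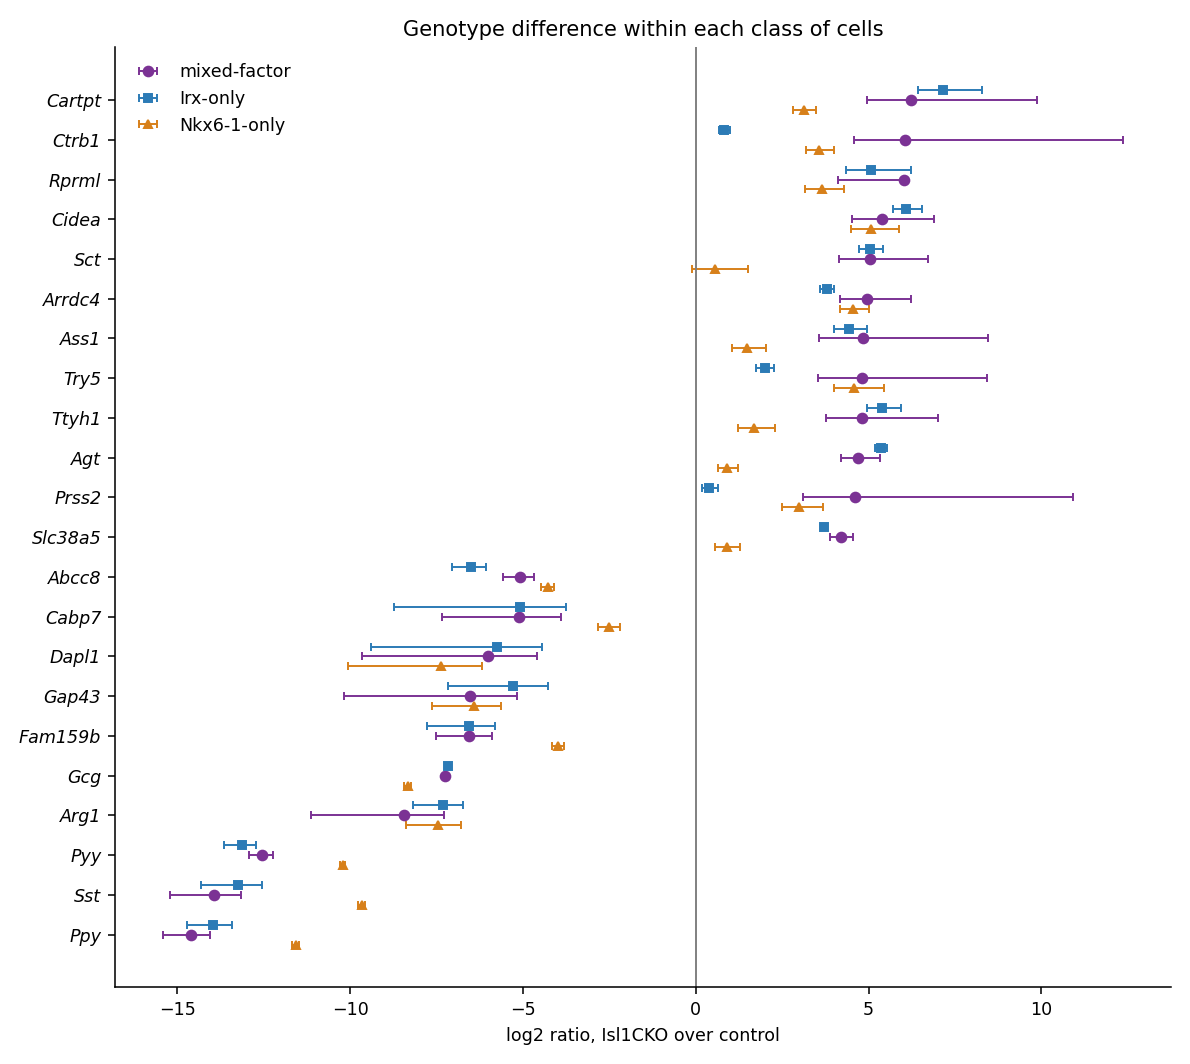
log2 ratio of Isl1CKO to control in mixed-factor (purple), Irx-only (blue) and Nkx6-1-only cells (orange) for the 12 genes with the highest ratio in members and 10 of the 12 with the lowest, with exact 95% intervals of a ratio of counts. No upper bound exists for Rprml, which had no control UMI in members. The 3 classes share the direction for each gene, while Sct, Agt and Slc38a5 lie lower in Nkx6-1-only cells.

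Several genotype differences were unequal between cells of either sex, which come from different animals of the pool. The 256 Isl1CKO members with Xist and no Y-linked UMI had the reporter tdTomato at 6190.3 CPM, and the 125 with Y-linked UMIs and no Xist at 1020.4, beside 871 and 1418 in control members. Immediate early genes, which respond within minutes to stimulation, split the same way: Egr1 stood at 280.1 and 23.7 CPM, Fos at 92.8 and 10.6 and Junb at 317 and 31.3. Over all members 4 of 8 immediate early genes were higher in Isl1CKO (Fos, 1.63; Junb, 2.11; Egr1, 2.17; Btg2, 1.97) and Jun lower (-1.33). In Xist cells 6 of 8 were higher and 0 lower, whereas in Y-linked cells 0 of 6 were higher and 2 lower. Over all genes 864 of 5385 were higher and 261 lower in Xist cells, and 321 of 5203 and 201 in Y-linked cells. Fos, Junb, Egr1 and tdTomato had the other sign there, at -0.72, -0.30, -0.53 and -0.48. Slc38a5 and Sct were instead higher in the Y-linked members, at 172 and 2087 CPM and at 71.1 and 274 CPM, and Arrdc4 higher in the Xist members, at 351 and 50.7. The same orders were present in Irx-only cells, where Slc38a5 stood at 272 and 3684 CPM and Egr1 at 269.7 and 23.2. With 3 animals in a pool, sex and animal cannot be told apart.

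The Isl1CKO share was above the control share in cells of either sex: 4.76% against 1.75% in Xist cells and 7.40% against 2.42% in Y-linked cells. At 7500 to 14999 UMIs these were 5.62% against 1.75% and 7.84% against 2.08%. Gcg was lower in both sexes as well: Gcg stood at 230342 and 1637 CPM in Xist members and at 241786 and 1386 in Y-linked members of control and Isl1CKO.

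Digestive enzyme RNA, a mark of acinar cells, was also unequal. Of 6 measured acinar genes 5 were higher in Isl1CKO members, Ctrb1 (6.06, 4.58 to 12.37), Try5 (4.80, 3.52 to 8.44), Prss2 (4.61, 3.11 to 10.91), Clps (3.30) and Try4 (3.31), and Cela1 lower (-2.27). Control members had 1 UMI each of Ctrb1 and Prss2 and 2 of Try5, below the control Irx-only cells, where Ctrb1 stood at 42.2 CPM. In Isl1CKO, 73.1% of the Ctrb1 UMIs of the members came from 5 cells, and Ctrb1 stood at 178 CPM in Xist members and 13.1 in Y-linked ones. At least 1% of UMIs came from non-endocrine markers in 0 control and 5 Isl1CKO members, and no endothelial, stromal, Schwann or red blood cell marker passed the limits for measurement in this comparison. The part of acinar RNA in the other differences was not tested.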

How the data were processed

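Droplet 3′ libraries (10x Genomics 3′ v3.1) of sorted tdTomato+ islet cells were deposited as matrices of raw UMI counts over all 6794880 possible barcodes and 46984 features; per the submitters' processing notes GRCm38.p6 was the genome and STAR 2.7.3a and Seurat 4.3.0.1 were among the tools. The deposited matrices were not filtered, and empty droplets were removed here by the limits on UMIs, genes and mitochondrial share. The members and gene lists were chosen with earlier results of these data known, and the alpha, beta, delta, acinar, immediate early and other lists come from textbook markers.

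UMIs were summed per class and library, scaled by TMM factors (edgeR 4.0.16; alternatives were no scaling, hormone genes left out of the totals, and size factors from DESeq2 1.42.0), and compared as log2 ratios with exact conditional Poisson intervals; shares have Clopper-Pearson intervals at 95%. No gene model was fitted, because each genotype was 1 library. Genes were named from the lists, and as the 12 highest and 12 lowest ratios between genotypes among genes measured, seen in at least 10% of members and of the same direction under each scaling, and the genes past 2-fold beyond both classes. Doublets were marked with Scrublet (scanpy 1.11.5) and not removed in the main values. Ratios and intervals were tested on simulated counts. Alternatives were thinning to 3000 UMIs, other limits, cells of 5000 to 14999 UMIs, cells by sex, and leaving out marked cells; the last, with cells holding Xist and Y-linked UMIs, and the split of marker-rich barcodes by granins were chosen after the data had been seen. Positions are from GENCODE vM21, which matched 46488 of the feature IDs. Some genes that these lists and ranks name are not reported here, while the counts include them.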

Additional observations from a re-analysis of the deposited data

Results flagged for a closer look

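Ier2, an immediate early gene, had the opposite direction in the 2 sexes when Isl1CKO members were compared with control members. Its log2 ratio was 1.80 in cells with Xist and no Y-linked UMI, from 286 UMIs in Isl1CKO and 6 in control, and -1.14 in cells with Y-linked UMIs and no Xist, from 32 and 21 UMIs. With 1 library per genotype this difference was not tested.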

How the results depend on the processing

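No paired analysis was possible because each genotype was 1 library and both carry the same replicate number. The member share of 1.90% in control and 5.53% in Isl1CKO was 10.1% and 17.7% with at least 1 UMI on each side, 0.569% and 1.71% with at least 3, 0.0495% and 0.439% after thinning, 1.37% and 4.73% without Scrublet-marked cells, and 1.22% and 4.59% also without cells holding Xist and Y-linked UMIs. The Isl1CKO share was the higher one under each of these, and with a minimum of 2000 UMIs, a mitochondrial limit of 10% or without marker-rich barcodes.

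Counts of genes at 2-fold or more depended on the settings. With a limit of 5 CPM and no minimum of UMIs they were 450 in place of 78 (control members against Irx-only cells), 745 in place of 212 (against Nkx6-1-only cells), 111 in place of 22 and 685 in place of 274 (the same in Isl1CKO), and 1572 in place of 677 (between genotypes). With totals that exclude hormone genes the control counts were 142 and 339, and without scaling the count between genotypes was 1803. With at least 3 UMIs on each side the first was 185. In Xist cells the control counts were 315 and 342 and that between genotypes 1125, and in Y-linked cells the Isl1CKO count against Nkx6-1-only cells was 444. In cells of middle depth the control count against Nkx6-1-only cells was 547, and without Scrublet-marked cells it was 337; the Isl1CKO count against Irx-only cells was then 12. Also without cells holding Xist and Y-linked UMIs these were 364 and 10.

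Of 1450 ratios of named genes over the alternatives, 1359 kept their side of 2-fold and their sign, 64 kept only the sign and 27 had the other sign. Beside those in the report, in cells of middle depth these were Hist1h2ae against Irx-only cells (-0.55), G6pc2 (0.48), Mki67 (-0.22), Serpina7 (-0.19) and Scn3b (-0.52) against Nkx6-1-only cells, and Cela1 between genotypes (2.61); with at least 3 UMIs on each side, Serpina7 (-1.17 and -1.10); in Xist cells, Nap1l3 (0.028 and 0.076) and Cela1 (0.58); in Y-linked cells, Top2a (-0.60 and -3.37), Mki67 (-2.50) and Hist1h2ae (-0.67); and Cela1 without marked cells and cells with Xist and Y-linked UMIs (0.046). In cells of middle depth Sst, Ppy and Pyy had -0.45, -0.95 and -0.44; in Xist cells Ins1, Ins2, Slc2a2 and G6pc2 had 1.23, 0.77, 0.76 and 1.21; in Y-linked cells Fos, Junb, Egr1 and tdTomato had -0.72, -0.30, -0.53 and -0.48. The cause of these differences was not tested. In another scaling Tmem27, Gc, Nap1l3, Fev and Jun were under 2-fold. In control, 80 members and 2 after thinning limit what can be told at equal depth.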

Other observations

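Some genes outside the lists were called in opposite directions in 2 parts of the data; they were named after their values were seen. Between members and Nkx6-1-only cells, 2 of 4940 genes measured in both libraries had opposite calls and 81 the same call: Sorcs2 had log2 ratios of 1.18 in control and -1.53 in Isl1CKO, and Prss23 -1.23 and 2.44. Between members and Irx-only cells, 0 of 4796 had opposite calls and 10 the same call. Between genotypes, 4 of 4636 genes had opposite calls in members with Xist and in members with Y-linked UMIs and 169 the same call. Beside Ier2 these were the tetraspanin gene Cd9 (1.91 in Xist cells and -1.79 in Y-linked cells), the metallothionein gene Mt2 (2.50 and -1.59) and the adaptor gene Grb10 (-1.12 and 1.05). None of these differences was tested.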
